A study of Mus musculus with 4 samples.

Results

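Cadherins and protocadherins were followed in cortical nuclei of GCLC-KO mice by single-nucleus RNA-seq. All genes with a symbol made of Cdh and a number, or of Pcdh followed by digits or letters, were taken: 92 of the 32285 genes listed, namely 23 cadherins, 12 nonclustered protocadherins and 57 clustered protocadherins. Every member had at least 1 UMI (unique molecular identifier, a counted RNA molecule) in some nucleus. GCLC is the catalytic subunit of the ligase that makes the precursor of glutathione. All 4 libraries came from GCLC-KO mice, in which a floxed allele (C57BL/6NTac-Gclctm1a(EUCOMM)Wtsi/WtsiCnbc) was crossed with CaMKII-Cre, a driver of recombination in forebrain excitatory neurons. Libraries 3M-1 and 3M-2 were from mice of 3 months and 6M-1 and 6M-2 from mice of 6 months, and the tissue was dissected where rod-shaped microglia were abundant. No wild-type library was part of the design, so age was compared within the knockout only and the effect of the deletion cannot be told apart from ageing.

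Classical cadherins are calcium-dependent adhesion proteins that bind a like molecule on the neighbouring cell and are tied to the actin cytoskeleton through catenins. In the cortex, type II cadherins and delta protocadherins are known for combinations that differ between layers and interneuron classes and take part in the sorting and wiring of neurons. Clustered protocadherins are made from 3 neighbouring gene arrays, alpha, beta and gamma, in which each neuron chooses a set of promoters, and they are known for self-recognition of neurites.

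The matrices held 30784 nuclei, of which 30515 were kept, with 59262228 to 65894316 UMIs per library. Nuclei were assigned to classes by marker genes, none of them a member. Fat2, of the wider cadherin superfamily, was among the markers of granule-type neurons. In all, 17614 nuclei fell into the 6 classes used here: excitatory neuron-like, inhibitory neuron-like, oligodendrocyte-like, OPC-like (oligodendrocyte precursor cells), astrocyte-like and microglia-like. The astrocyte-like class was small, with 50 and 97 nuclei at 3 months and 49 and 58 at 6 months. Gclc was at 42.8, 33.6, 34.8 and 33.7 CPM (UMIs scaled to a common total per library and class) in excitatory neuron-like nuclei of 3M-1, 3M-2 and both 6-month libraries, which checks no label without a wild type. Library 3M-2 held 71 granule-type neuron-like nuclei against 1 to 7 in the others, and pairs of libraries shared 12 to 19 barcodes. Nuclei marked as doublets made up 3.88% of 3M-1 and 7.51% to 8.78% of the other libraries. RNA of other classes' markers was present in each class: the 7 excitatory markers summed to 15.2% to 26.7% of their excitatory level in microglia-like nuclei, 7.32% to 16.5% in oligodendrocyte-like, 17.6% to 28.0% in OPC-like and 21.3% to 35.0% in astrocyte-like nuclei. The 8 inhibitory markers summed to 43.9% to 50.2% of their own level in OPC-like nuclei and to at most 11.9% in the other classes. Whether such RNA came from other cells or was made by the class itself was not tested.

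Between the 6 classes, 36 members passed the filter on low counts, and each class was compared with the mean of the other 5 in edgeR's quasi-likelihood test, with p-values adjusted over all genes. Of 216 such tests on members, 149 passed an adjusted p of 0.05, or 69%, against 51.7% of the tests on all genes. At least 1 class was called for 34 of the 36 members, a share of 94.4% beside 94.8% for all genes. The direction depended on the class. In excitatory neuron-like nuclei 22 members were higher and 7 lower (33.9% and 33.4% of all genes), and in inhibitory neuron-like nuclei 19 were higher and 8 lower (30.8% and 30.4%). OPC-like nuclei had 21 higher members and 1 lower (18.1% and 12.7%), whereas oligodendrocyte-like nuclei had 6 higher and 21 lower (31.1% and 34.7%). In astrocyte-like nuclei 9 members were higher and 3 lower (13.3% and 8.27%). In microglia-like nuclei 31 members were lower and 1 was higher, against 33.2% and 30.4% of all genes.

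**Figure D1:**
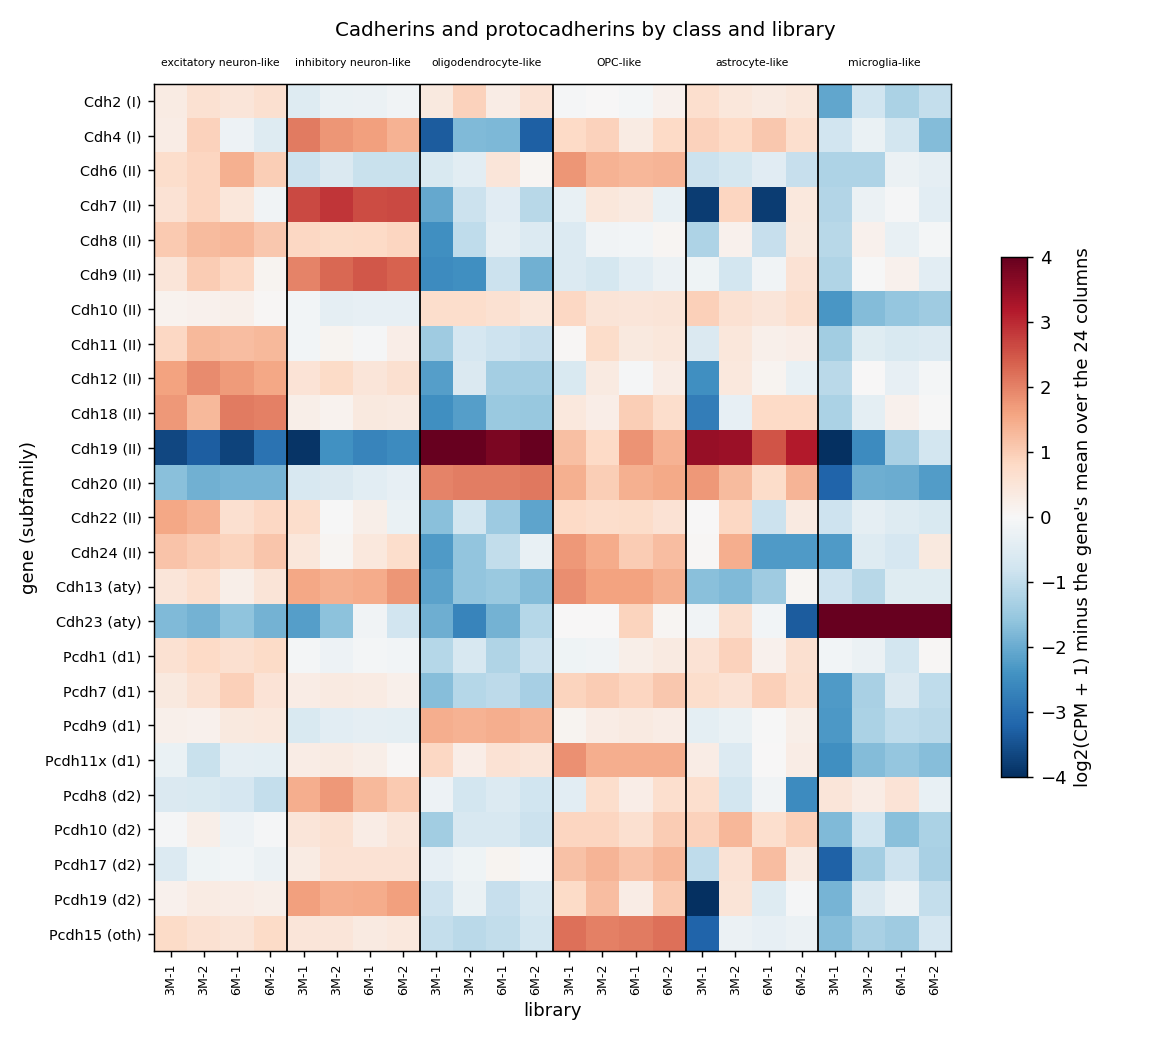
Levels of nonclustered members in the 6 classes, 4 libraries each; colour is log2(CPM + 1) minus the gene's mean over the 24 columns, saturating at 4 in either direction, and letters at the side give the subfamily (I and II, classical types; aty, atypical; d1 and d2, delta protocadherins; oth, other). Cdh23 stood out in the 4 microglia-like columns, Cdh19 in the oligodendrocyte-like and astrocyte-like columns, and Pcdh15 in the OPC-like columns.

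Promoter windows are shown for 4 members with a marked class pattern. Windows cover 250 bases before to 50 bases after the annotated start, from RefSeq on GRCm38.p6, written 5′ to 3′ on the gene's strand. Of the members, 22 had a window, 25 windows in all, and clustered genes were not searched. Capitals mark matches to GAGGAA, a core letter string of the PU.1 site, or to the TATA box string TATAAA, searched on both strands. Among all 32851 windows, 28.3% held GAGGAA and 13.6% held TATAAA. A match is a string of letters and was not tested as a site.
Cdh23, chr10:60696441-60696740, minus strand, highest in microglia-like nuclei: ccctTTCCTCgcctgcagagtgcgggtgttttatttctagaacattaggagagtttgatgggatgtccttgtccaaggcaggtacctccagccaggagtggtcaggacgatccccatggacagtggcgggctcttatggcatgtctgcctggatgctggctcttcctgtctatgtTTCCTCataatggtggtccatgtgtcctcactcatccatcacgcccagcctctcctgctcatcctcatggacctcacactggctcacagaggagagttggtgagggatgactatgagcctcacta
Pcdh15, chr10:73821617-73821916, plus strand, highest in OPC-like nuclei: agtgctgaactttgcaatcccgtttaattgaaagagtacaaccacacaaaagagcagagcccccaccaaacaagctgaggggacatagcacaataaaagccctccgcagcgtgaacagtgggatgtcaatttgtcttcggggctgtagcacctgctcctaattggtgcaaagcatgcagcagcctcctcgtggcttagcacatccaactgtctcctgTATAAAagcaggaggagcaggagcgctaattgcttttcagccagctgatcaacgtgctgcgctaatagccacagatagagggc
Cdh20, chr1:104768270-104768569, plus strand, highest in oligodendrocyte-like nuclei: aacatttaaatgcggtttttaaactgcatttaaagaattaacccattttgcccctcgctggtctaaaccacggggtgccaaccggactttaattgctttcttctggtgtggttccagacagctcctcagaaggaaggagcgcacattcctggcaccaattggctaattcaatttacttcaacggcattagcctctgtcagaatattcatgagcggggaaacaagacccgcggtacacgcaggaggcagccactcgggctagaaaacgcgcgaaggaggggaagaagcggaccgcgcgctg
Cdh7, chr1:109982650-109982949, plus strand, highest in inhibitory neuron-like nuclei: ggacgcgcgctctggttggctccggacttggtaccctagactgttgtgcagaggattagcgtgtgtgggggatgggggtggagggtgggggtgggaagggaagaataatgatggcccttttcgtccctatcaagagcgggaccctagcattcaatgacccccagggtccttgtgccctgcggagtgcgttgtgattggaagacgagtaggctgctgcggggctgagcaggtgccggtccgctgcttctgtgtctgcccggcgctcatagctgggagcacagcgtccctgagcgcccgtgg
The Cdh23 window held 2 matches to GAGGAA, and the Pcdh15 window, which lies inside the annotated span of the gene, held 1 TATAAA. Neither string was found in the Cdh20 and Cdh7 windows. The Cdh7 window shown also lies inside the annotated span of its gene, and Cdh7 had further windows that are not shown. Over the members' windows, 9 of 25 held GAGGAA and 2 held TATAAA. Besides Cdh23, GAGGAA was in windows of Cdh6, Cdh8, Cdh18, Cdh22 and Pcdh9, all called lower in microglia-like nuclei. It was also in those of Cdh26 and Pcdh20, which were not tested between classes. A further string, the GC box GGGCGG, was in 9 of the 25 and in 35.7% of all windows, and the median GC content was 60.3% for members and 52.7% for all.

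Among type I classical cadherins, Cdh2 (N-cadherin, chromosome 18) and Cdh4 (R-cadherin, chr2:179442431-179899373) were the members with enough counts. Cdh2 was broad, from a mean of 116 CPM in microglia-like to 395 CPM in oligodendrocyte-like nuclei, where the 4 libraries, 3-month before 6-month and replicate 1 before 2 as in all lists below, had 348, 508, 328 and 395 CPM. Cdh4 was at 225, 182, 165 and 139 CPM in inhibitory neuron-like nuclei, and at 4.34, 14.6, 14.3 and 4.52 CPM in oligodendrocyte-like nuclei, with no overlap. The fitted log2 difference from the other classes was 2.12 ± 0.14 (SE derived from the test statistic, 4 libraries per class) in the former and -2.89 ± 0.24 in the latter. Cdh1, Cdh3 and Cdh15, cadherins of epithelium, placenta and muscle, had 12, 3 and 43 UMIs over the 6 classes and were not tested.

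Type II cadherins differed between classes without a plain split of neurons from glia. Of their 12 tested members, 10 were higher in excitatory neuron-like nuclei and 2 lower (33.9% and 33.4% of all genes). All 12 were lower in microglia-like nuclei (33.2% of all genes). In OPC-like nuclei 8 were higher and 1 lower (18.1% and 12.7%). Inhibitory neuron-like nuclei had 4 higher and 4 lower (30.8% and 30.4%). Astrocyte-like nuclei had 3 and 1 (13.3% and 8.27%), and oligodendrocyte-like nuclei 3 and 8 (31.1% and 34.7%). The list's median log2 difference was 1.40 beside -0.0316 over all genes in excitatory neuron-like and -1.12 beside -0.0743 over all genes in microglia-like nuclei. Cdh18 (chr15:22549022-23474418) was at 841, 619, 1068 and 1027 CPM in excitatory neuron-like nuclei, above every library of the next class, OPC-like, and its log2 difference was 2.32 ± 0.15. Cdh12 (chr15:20449265-21589533) had 616, 746, 656 and 592 CPM there, a log2 difference of 2.22 ± 0.13. Both are adhesion molecules of the brain. Cdh11, Cdh22, Cdh8 and Cdh6 were also higher there, by 1.65, 1.62, 1.61 and 1.41 on the log2 scale. Cdh6 was called higher in OPC-like nuclei as well.

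Inhibitory neuron-like nuclei were highest for Cdh7 (chr1:109982431-110140157) and Cdh9 (chr15:16728756-16857094), both linked to neuronal recognition. Cdh7 was at 87, 99.9, 84.9 and 86.2 CPM there and at 20, 24.2, 18.1 and 11.7 CPM in excitatory neuron-like nuclei, with log2 difference 3.01 ± 0.14 for the inhibitory class. Cdh9 was at 166, 206, 236 and 217 CPM, a log2 difference of 2.75 ± 0.13. Mean levels over the 6 classes ran from 11.3 to 206 CPM for Cdh9, 5.93 to 89.5 CPM for Cdh7, 68.8 to 889 CPM for Cdh18, 83.7 to 653 CPM for Cdh12, 51.2 to 220 CPM for Cdh8, 74.9 to 328 CPM for Cdh11, 29.5 to 146 CPM for Cdh6, 5.38 to 36.6 CPM for Cdh22 and 1.24 to 11.7 CPM for Cdh24.

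The 2 type II members lower in excitatory neuron-like nuclei were Cdh19 and Cdh20, which lie with Cdh7 on chromosome 1. Cdh19 (chr1:110888326-110977584), known from Schwann cell precursors, was at 635, 508, 354 and 412 CPM in oligodendrocyte-like nuclei, at 293, 284, 150 and 238 CPM in astrocyte-like nuclei, and at 1.1, 1.65, 1 and 2.38 CPM in excitatory neuron-like nuclei. Its log2 difference was 5.16 ± 0.17, 3.84 ± 0.28 and -4.61 ± 0.32 in these classes. Cdh20 (chr1:104768529-104995481) was at 665, 689, 693 and 717 CPM in oligodendrocyte-like nuclei, above all OPC-like libraries (329 to 476 CPM), with a log2 difference of 2.56 ± 0.10. Both thus had their highest level in oligodendrocyte-like nuclei, unlike Cdh7. Cdh10 was broad, with means of 525 CPM in astrocyte-like, 500 CPM in oligodendrocyte-like and 97.3 CPM in microglia-like nuclei. Cdh5, the cadherin of endothelium, had 12 UMIs over the 6 classes.

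Cdh23 (chr10:60302748-60696490), an atypical cadherin of the hair cell tip link, was the only member called higher in microglia-like nuclei. It was at 418, 398, 482 and 341 CPM there, against 9.10 to 17.6 CPM in the OPC-like libraries, the next class, and the log2 difference was 6.28 ± 0.14. Vsir, an immune checkpoint gene chosen after its values were seen, lies inside this span on the opposite strand (plus), and was at 290, 259, 233 and 212 CPM in microglia-like nuclei and at 0.510 CPM on average in excitatory neuron-like nuclei. Whether reads were counted by strand is not given in the sources used here. Whether reads of either gene were counted for the other in microglia-like nuclei was not tested. Cdh13 (T-cadherin, which lacks the cytoplasmic tail) was at 615, 515, 523 and 450 CPM in OPC-like and 500, 454, 478 and 573 CPM in inhibitory neuron-like nuclei, each 1.86 ± 0.13 above the other classes on the log2 scale. These groups overlapped, beside the inhibitory markers' level in OPC-like nuclei given above, whose part was not tested, and oligodendrocyte-like nuclei had 37.5 to 59.6 CPM. Cdh16, Cdh17 and Cdh26 had 4, 6 and 6 UMIs.

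Mean levels over the 6 classes ran from 9.45 to 178 CPM for Cdh4, 1.53 to 477 CPM for Cdh19, 33.9 to 691 CPM for Cdh20, 50.7 to 526 CPM for Cdh13 and 1.86 to 410 CPM for Cdh23.

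Delta-1 protocadherins carry a long cytoplasmic tail with conserved motifs. Pcdh9 (chr14:93013410-93890679) was at 10235, 9778, 10276 and 9550 CPM in oligodendrocyte-like nuclei, above every other class, a log2 difference of 1.81 ± 0.12, and its mean was lowest in microglia-like nuclei, at 1469 CPM. Pcdh11x, which is X-linked, was at 622, 487, 487 and 486 CPM in OPC-like nuclei, 1.80 ± 0.11 above the other classes, and its lowest mean was 49.0 CPM in microglia-like nuclei. Pcdh7 ran from 233 CPM in oligodendrocyte-like to 1104 CPM in OPC-like nuclei, whose libraries overlapped those of the astrocyte-like class. Pcdh1 ran from 9.15 to 30.8 CPM.

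Delta-2 protocadherins, whose tails recruit the actin-regulating WAVE complex, were higher in inhibitory neuron-like nuclei in 4 of 4 tested members, beside 2 higher and 1 lower in excitatory neuron-like nuclei, where 30.8% of all genes were higher in the former and 33.9% higher and 33.4% lower in the latter. In OPC-like nuclei 3 of the same 4 were higher and 0 lower (18.1% and 12.7% of all genes), with a median log2 difference of 0.89. The median log2 difference in inhibitory neuron-like nuclei was 1.18 beside -0.0249 over all genes. Pcdh19, X-linked and known for epilepsy when mutated, was at 59.8, 52.6, 52.9 and 59.3 CPM there, a log2 difference of 1.76 ± 0.13. Pcdh8, an activity-regulated gene, was at 14.6, 17.8, 13.1 and 10.7 CPM (75 to 112 UMIs per library), 1.87 ± 0.17 higher. Pcdh10 ran from 30.8 CPM in microglia-like to 156 CPM in astrocyte-like nuclei, Pcdh17 from 38.2 to 255 CPM, the latter in OPC-like nuclei, and Pcdh18 had 96 UMIs in all and was not tested.

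Pcdh15 (chr10:73099342-74649737), the partner of Cdh23 in the tip link, was at 2775, 2425, 2567 and 2798 CPM in OPC-like nuclei. That was above the excitatory neuron-like libraries, at 853 to 1024 CPM, and the log2 difference was 2.42 ± 0.16. The 2 tip-link genes thus had their highest levels in different classes. Pcdh20 and Pcdh12, the latter known from endothelium, had 223 and 1 UMIs. Over the 6 classes the means of Pcdh15 ran from 258 to 2641 CPM, of Pcdh8 from 2.52 to 14 CPM, of Pcdh19 from 10.2 to 56.1 CPM, of Pcdh18 from 0 to 2.74 CPM and of Pcdh20 from 0 to 6.11 CPM. Cdh1, Cdh3, Cdh5, Cdh15, Cdh16, Cdh17, Cdh26 and Pcdh12 had means of at most 1.61 CPM.

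The members called most strongly in each class, those above included, with their log2 difference from the mean of the other classes in parentheses, were as follows. For excitatory neuron-like nuclei, Cdh18 (2.32), Cdh12 (2.22), Cdh11 (1.65), Cdh22 (1.62), Cdh8 (1.61) and Cdh6 (1.41) were higher and Cdh19 (-4.61), Cdh23 (-2.46) and Cdh20 (-1.98) were lower. For inhibitory neuron-like nuclei, Cdh7 (3.01), Cdh9 (2.75), Cdh4 (2.12), Pcdh8 (1.87), Cdh13 (1.86) and Pcdh19 (1.76) were higher and Cdh19 (-3.74), Cdh23 (-1.33) and Cdh6 (-1.0) were lower. For oligodendrocyte-like nuclei, Cdh19 (5.16), Cdh20 (2.56), Pcdh9 (1.81), Cdh10 (0.85), Cdh2 (0.76) and Pcdh11x (0.74) were higher and Cdh4 (-2.89), Cdh23 (-2.54) and Cdh18 (-2.3) were lower. For OPC-like nuclei, Pcdh15 (2.42), Cdh13 (1.86), Pcdh11x (1.8), Cdh6 (1.71), Cdh19 (1.58) and Cdh20 (1.54) were higher and Cdh9 (-0.69) was lower. For astrocyte-like nuclei, Cdh19 (3.84), Cdh20 (1.51), Pcdh10 (1.13), Cdh4 (0.92), Pcdh7 (0.8) and Cdh10 (0.76) were higher and Cdh13 (-1.28), Cdh6 (-1.0) and Pcdh15 (-0.89) were lower. For microglia-like nuclei, Cdh23 (6.28) was higher and Cdh20 (-3.05), Pcdh11x (-2.5) and Cdh10 (-2.35) were lower.

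RNA of neuronal markers was present in the glial classes, and some neuronal members lay within the markers' range there. In microglia-like nuclei Cdh18 and Cdh12 were at 23.3% and 25.0% of their excitatory level, inside the 15.2% to 26.7% of the excitatory markers, and Pcdh15 was just above it, at 27.1%. In oligodendrocyte-like nuclei Cdh18 was at 7.7%, inside the 7.32% to 16.5% of the markers. Cdh4 was at 5.3% of its inhibitory level there, above the highest share of the inhibitory markers, 2.83%. Since Cdh4 was also present in excitatory neuron-like nuclei, the inhibitory markers alone do not bound the share that other cells could give. The part of RNA from other cells in these levels was not tested.

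Excitatory neuron-like nuclei were divided by layer markers into 8 subclasses: layer 2/3, layer 4 and layer 5 intratelencephalic (IT), layer 5 extratelencephalic (ET), layer 5/6 near-projecting (NP), layer 6 IT with Car3, layer 6 corticothalamic (CT) and layer 6b. Of 208 tests on 26 members, 120 were called, or 57.7%, against 22% over all genes. The calls fell on 21 members (80.8%, beside 61.6% of all genes), and no clustered member was among them. Only 4 of the 57 clustered members had enough counts to be tested here. Layer 6 CT and layer 6b had 19 called members each, against 31.5% and 22.3% of all genes. Layer 5 IT had 15 against 16%, layer 2/3 IT, layer 4 IT and layer 6 IT Car3 had 15 each against 25.8%, 35.1% and 19.5%, and layer 5 ET and layer 5/6 NP had 12 and 10 against 14.9% and 11.1%.

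Cdh18 was highest in layer 6b and layer 6 CT, while it was called lower in layer 5 IT and layer 5 ET. It was at 4479, 4105, 4767 and 4139 CPM in layer 6b and at 2513, 1844, 2615 and 2336 CPM in layer 6 CT, log2 differences of 3.81 ± 0.09 and 2.71 ± 0.09. In layer 4 IT it was at 66.3, 62.5, 121 and 100 CPM, 2.62 ± 0.15 lower on the log2 scale, and no library of these 3 subclasses overlapped another subclass of the 3. Cdh24 (chr14:54631231-54641364) followed the same order at low counts, with 47.5, 52.8, 36.2 and 40.3 CPM in layer 6b, 13.2 to 23.3 CPM in layer 6 CT and 0 to 2.55 CPM in layer 4 IT. Its log2 differences were 3.14 ± 0.25, 1.66 ± 0.17 and -2.44 ± 0.35.

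Cdh12 was highest in layer 4 IT, at 1330, 1605, 1545 and 1385 CPM against 119, 156, 178 and 183 CPM in layer 6b, and its log2 difference in layer 4 IT was 1.93 ± 0.07. Cdh8, known for layered and thalamic patterns, was at 373, 417, 423 and 437 CPM in layer 4 IT, a log2 difference of 1.42 ± 0.08, and at 34.1 to 50.5 CPM in layer 6 CT. Cdh6 was also higher in layer 4 IT (1.29 ± 0.10). Cdh9 went the other way: 3.57 to 3.96 CPM in layer 4 IT, from 7 to 10 UMIs per library, against 182, 231, 204 and 201 CPM in layer 6 IT Car3. Its log2 differences were -3.69 ± 0.35 and 2.80 ± 0.17.

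Layer 2/3 IT was higher for Cdh7 and Cdh4, with log2 differences of 2.66 ± 0.16 and 1.78 ± 0.17. Cdh7 was at 62.8, 63.2, 59.2 and 61.6 CPM there, against 1.16 to 6.31 CPM in layer 6 CT. Neither gene was particular to layer 2/3 IT: both were also called higher in layer 5 ET and layer 5/6 NP. Layer 5 ET was higher for Cdh7, Cdh4, Cdh20 and Cdh22, by 1.92, 1.74, 1.73 and 1.5. In layer 5/6 NP, Cdh4 was at 198, 189, 106 and 72.1 CPM, a log2 difference of 2.00 ± 0.20, and Pcdh17 was 1.14 ± 0.10 higher. Layer 5 IT was 1.04 ± 0.10 higher for Cdh10 and 1.59 ± 0.27 lower for Cdh7. Neither was particular to it: Cdh10 was also called higher in layer 6b and layer 4 IT, and Cdh7 lower in layer 6 IT Car3.

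Layer 6 IT Car3 was the highest subclass for Pcdh15, at 2075, 1828, 1846 and 2312 CPM, above all libraries of layer 4 IT, the next, and 1.43 ± 0.08 higher than the others on the log2 scale. Cdh13 was 1.29 ± 0.14 higher there, and Pcdh11x, at 11.2 to 51.2 CPM, was 2.27 ± 0.25 lower. Cdh10 separated the deepest subclasses, with 490, 751, 604 and 745 CPM in layer 6b and 36.1, 75, 51.6 and 61.7 CPM in layer 6 CT. These differed from the mean of the others by 1.18 ± 0.12 and -2.91 ± 0.15. Cdh20 was also 2.91 ± 0.29 lower in layer 6 CT, and Cdh4 was 3.72 ± 0.57 lower in layer 6b, where it had 0 to 5 UMIs per library.

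The strongest calls of each layer, those above included, given as log2 differences in parentheses, were these. For layer 2/3 IT, Cdh7 (2.66), Cdh4 (1.78), Cdh22 (0.76), Cdh9 (0.69), Cdh12 (0.63) and Pcdh11x (0.6) were higher and Cdh18 (-2.05), Cdh24 (-1.33) and Cdh11 (-0.57) were lower. For layer 4 IT, Cdh12 (1.93), Cdh8 (1.42), Cdh6 (1.29), Pcdh15 (0.88), Cdh10 (0.66) and Cdh20 (0.65) were higher and Cdh9 (-3.69), Cdh18 (-2.62) and Cdh24 (-2.44) were lower. For layer 5 IT, Cdh10 (1.04), Pcdh19 (0.81), Cdh12 (0.69), Pcdh7 (0.6), Pcdh15 (0.53) and Cdh8 (0.37) were higher and Cdh7 (-1.59), Cdh13 (-1.43) and Cdh18 (-0.82) were lower. For layer 5 ET, Cdh7 (1.92), Cdh4 (1.74), Cdh20 (1.73), Cdh22 (1.5), Cdh8 (1.31) and Pcdh19 (0.96) were higher and Cdh18 (-1.39), Pcdh7 (-0.76) and Pcdh9 (-0.56) were lower. For layer 5/6 NP, Cdh4 (2.00), Cdh9 (1.67), Cdh7 (1.4), Pcdh19 (1.4), Pcdh17 (1.14) and Cdh18 (0.99) were higher. For layer 6 IT Car3, Cdh9 (2.8), Cdh20 (1.7), Pcdh15 (1.43), Cdh13 (1.29), Pcdh10 (0.84) and Pcdh17 (0.65) were higher and Pcdh11x (-2.27), Cdh7 (-2.2) and Pcdh7 (-0.87) were lower. For layer 6 CT, Cdh18 (2.71), Cdh24 (1.66), Pcdh11x (1.15), Cdh9 (0.85), Cdh11 (0.71) and Pcdh9 (0.63) were higher and Cdh20 (-2.91), Cdh10 (-2.91) and Cdh8 (-2.34) were lower. For layer 6b, Cdh18 (3.81), Cdh24 (3.14), Cdh10 (1.18), Cdh13 (1.12), Pcdh11x (0.96) and Cdh11 (0.93) were higher and Cdh4 (-3.72), Cdh8 (-2.51) and Cdh9 (-2.33) were lower.

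**Figure D2:**
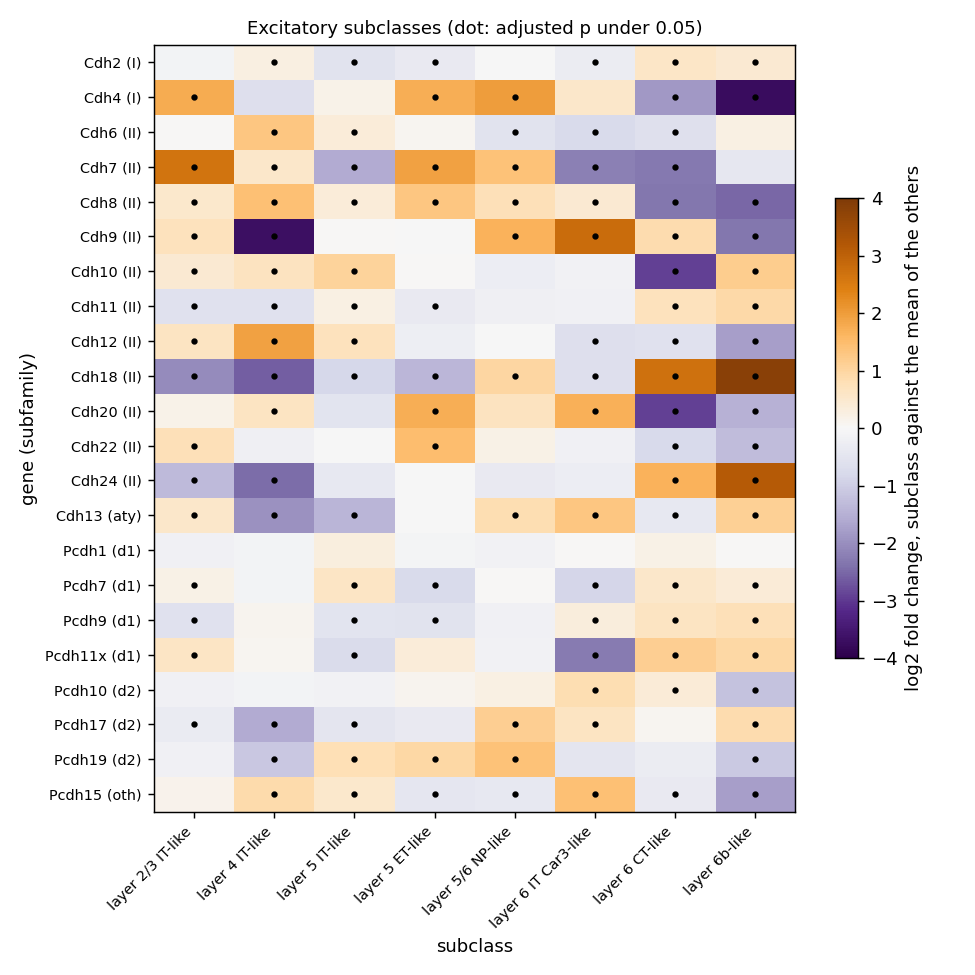
Fitted log2 difference of each nonclustered member in an excitatory subclass from the mean of the other subclasses, with a dot where the adjusted p was under 0.05. Cdh18 and Cdh24 were higher in layer 6 CT and layer 6b and lower in layer 4 IT, while Cdh12 and Cdh8 were higher in layer 4 IT and lower in layer 6b.

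Inhibitory neuron-like nuclei were divided into Pvalb, Sst, Vip and Lamp5 interneuron-like subclasses, named by a marker gene of each. Of 120 tests on 30 members, 64 were called, or 53.3%, against 25.6% over all genes. In at least 1 subclass 23 members (76.7%, beside 50.6%) were called, none of them clustered, though only 7 of the 57 clustered members were tested. Sst interneuron-like nuclei had 12 members higher and 4 lower (10.9% and 9.22% of all genes), and Lamp5 interneuron-like nuclei had 4 higher and 14 lower (13.2% and 12.3%). Pvalb and Vip interneuron-like nuclei had 15 called members each, against 36.9% and 19.7% of all genes.

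In Sst interneuron-like nuclei Cdh9 was at 320, 529, 605 and 582 CPM and Cdh13 at 834, 745, 804 and 1172 CPM, log2 differences of 2.35 ± 0.10 and 1.52 ± 0.11. Cdh4 was at 453, 390, 318 and 310 CPM, 1.94 ± 0.09 higher, and Pcdh11x at 379, 442, 382 and 380 CPM, 1.78 ± 0.08 higher. For all 4 genes the Sst libraries lay above every library of the next subclass. Cdh22 was also 2.35 ± 0.20 higher, whereas Cdh20 was 2.37 ± 0.16 lower.

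Lamp5 interneuron-like nuclei were the highest for Cdh20, at 270, 237, 253 and 305 CPM, and for Cdh24, at 24.5, 16.5, 22.1 and 32.2 CPM (15 to 33 UMIs per library). The log2 differences were 1.73 ± 0.12 and 4.04 ± 0.36. The same nuclei had 29.8 to 54.2 CPM of Cdh8, against 229 to 322 CPM in Sst interneuron-like nuclei, and were 2.14 ± 0.13 lower for it. Pcdh7 and Cdh7 were 1.97 ± 0.08 and 1.89 ± 0.15 lower.

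Vip interneuron-like nuclei were higher for Cdh6, at 68.2, 73.5, 50.1 and 114 CPM against 7.23 to 17.1 CPM in Sst interneuron-like nuclei, by 2.15 ± 0.22, and for Pcdh8, by 2.13 ± 0.26, from 9 to 23 UMIs per library. They were lower for Pcdh9, by 0.85 ± 0.08. Pvalb interneuron-like nuclei were higher for Cdh18, at 460, 499, 452 and 569 CPM, by 1.48 ± 0.11, and for Cdh7, by 1.14 ± 0.10. Cdh24 had 0 to 2 UMIs per library there. In both neuron classes, then, Cdh18 and Cdh24 differed strongly between subclasses, together in the layers and apart in interneurons, where Cdh18 had its lowest mean and Cdh24 its highest in Lamp5 interneuron-like nuclei.

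The strongest calls among interneurons, those above included, again as log2 differences, were these. For Pvalb interneuron-like nuclei, Cdh18 (1.48), Cdh7 (1.14), Cdh12 (0.82), Pcdh19 (0.66), Pcdh9 (0.44) and Pcdh17 (0.41) were higher and Cdh24 (-3.58), Pcdh8 (-2.3) and Cdh22 (-1.93) were lower. For Sst interneuron-like nuclei, Cdh22 (2.35), Cdh9 (2.35), Cdh4 (1.94), Pcdh11x (1.78), Cdh13 (1.52) and Cdh8 (1.45) were higher and Cdh20 (-2.37), Cdh6 (-1.45) and Cdh11 (-0.5) were lower. For Vip interneuron-like nuclei, Cdh6 (2.15), Pcdh8 (2.13), Cdh8 (1.14), Cdh10 (1.01), Pcdh10 (0.91) and Cdh11 (0.8) were higher and Cdh9 (-0.92), Pcdh9 (-0.85) and Pcdh11x (-0.73) were lower. For Lamp5 interneuron-like nuclei, Cdh24 (4.04), Cdh20 (1.73), Cdh11 (0.47) and Pcdh9 (0.22) were higher and Cdh8 (-2.14), Pcdh7 (-1.97) and Cdh7 (-1.89) were lower.

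**Figure D3:**
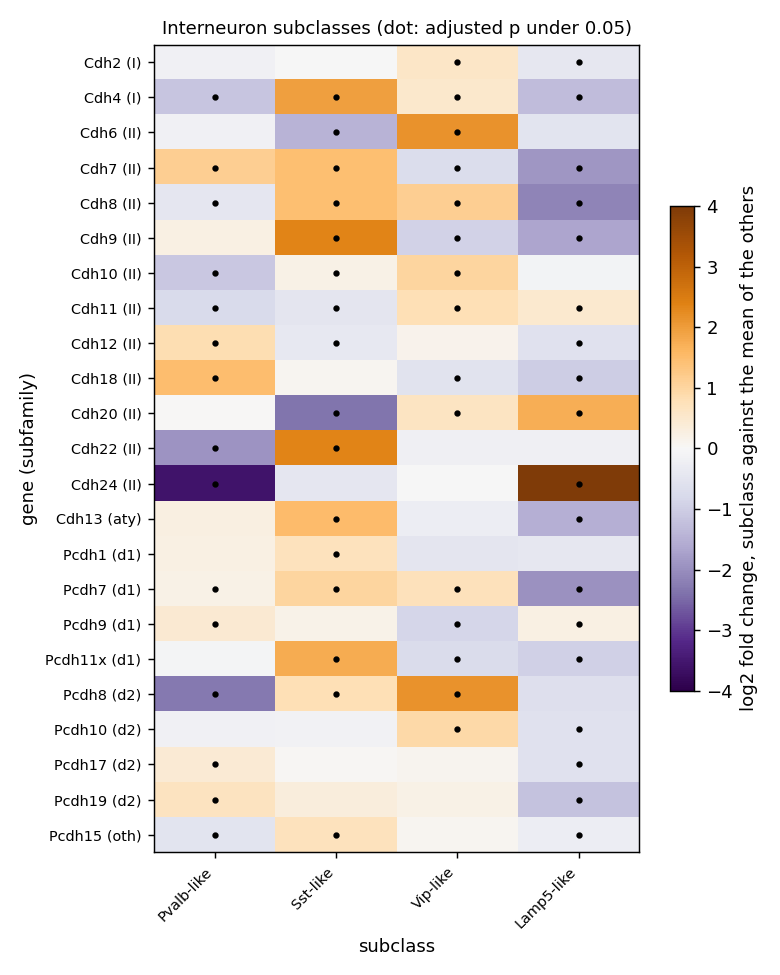
Fitted log2 difference of each nonclustered member in an interneuron subclass from the mean of the other 3, with a dot where the adjusted p was under 0.05. The Sst column held 12 higher members and the Lamp5 column 14 lower ones.

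Clustered protocadherins were sparse, with 1 to 1190 UMIs per gene over the 6 classes, and all 57 overlap another annotated gene on the same strand. Alpha and gamma genes overlap others of their own array, whereas nearly all beta genes are short separate loci that lie inside the spans of predicted genes. How reads in such overlaps were counted is not given in the sources used here, so the genes are uncertain and the 3 arrays on chromosome 18 are given as sums. The alpha sum was 16.3, 25.8, 31.2 and 28.4 CPM in excitatory neuron-like and 4.73 to 9.05 CPM in oligodendrocyte-like nuclei. The beta sum had its highest mean in OPC-like nuclei, at 74.8, 84.0, 116 and 91.1 CPM, and lowest in microglia-like nuclei, at 12.9, 19.3, 26.4 and 34.1 CPM. The gamma sum was 65.0, 81.5, 75.4 and 76.0 CPM in OPC-like and 34.3, 38.0, 48.2 and 47.6 CPM in excitatory neuron-like nuclei. Of the 11 clustered genes tested, 8 were lower in microglia-like, 6 higher and 1 lower in inhibitory neuron-like, and 5 higher in OPC-like nuclei, beside 33.2% of all genes lower in the first, 30.8% higher and 30.4% lower in the second and 18.1% higher in the last. The filter on low counts asks for a minimum CPM in a number of library and class columns. Pcdhgc3, with 105 UMIs over the 6 classes, could pass it only through classes where it is high. Its log2 difference of 2.98 ± 0.41 in OPC-like nuclei is therefore partly set by the filter. The same may hold for the counts of higher genes among the 11 tested.

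**Figure D4:**
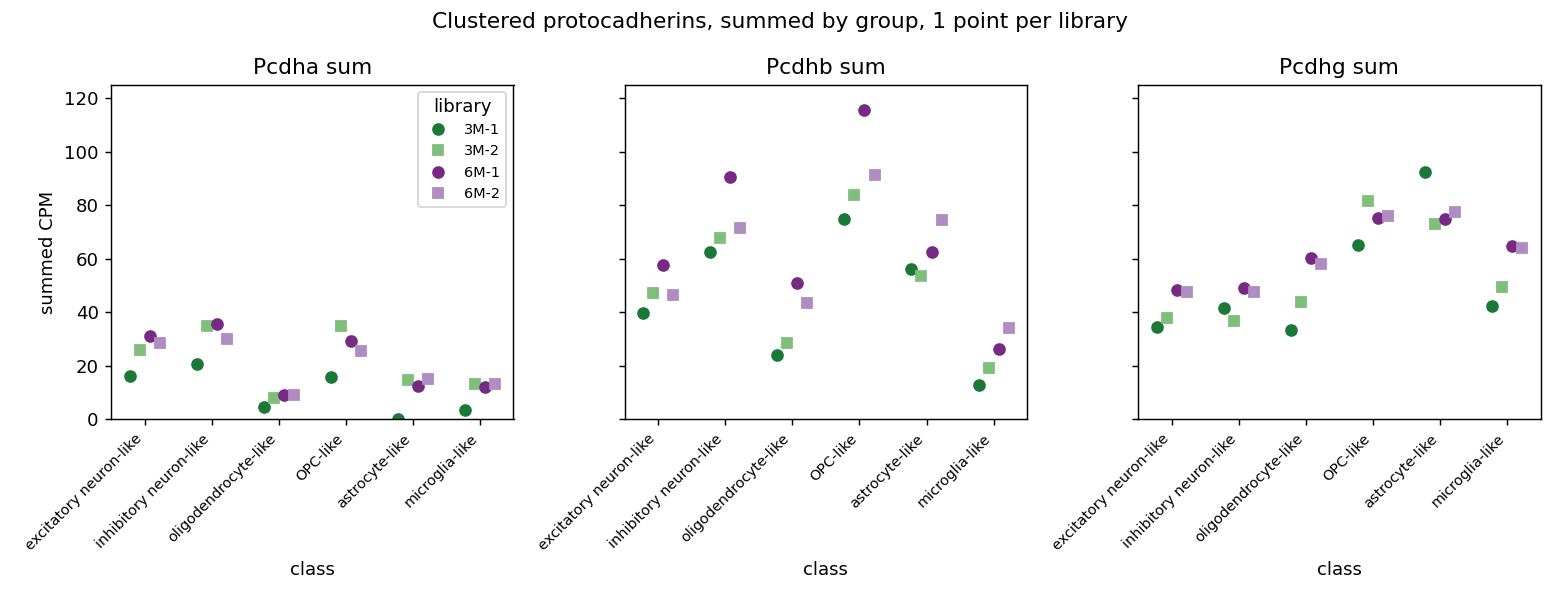
Summed CPM of the alpha, beta and gamma protocadherins in each of the 4 libraries by class, on a linear axis from 0. The beta sum in microglia-like nuclei stayed between 12.9 and 34.1 CPM, below all OPC-like libraries.

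The contrast of the study was 6 against 3 months, with 2 libraries each. No member passed an adjusted p of 0.05 in any of the 6 classes in edgeR, out of 235 tests on members, where 0.00267% of the tests on all genes did. At an unadjusted p under 0.05 there were 30 (12.8%, beside 5.61% of all genes), and DESeq2 called 1, Cdh4 in excitatory neuron-like nuclei. In the 12 neuron subclasses none of 306 tests passed, beside 0.00247% of all genes, 40 had an unadjusted p under 0.05 (13.1%, beside 5.18%), and DESeq2 called 1, Cdh4 in layer 5 IT. By class, members with an unadjusted p under 0.05, beside the share of all genes in parentheses, numbered 10 of 75 in excitatory neuron-like nuclei (5.97%), 4 of 56 in inhibitory neuron-like nuclei (4.56%), 6 of 31 in oligodendrocyte-like nuclei (5.36%), 3 of 32 in OPC-like nuclei (5.02%), 2 of 17 in astrocyte-like nuclei (4.13%) and 5 of 24 in microglia-like nuclei (7.9%). Among layers they numbered 2 of 27 in layer 2/3 IT (5.96%), 5 of 27 in layer 4 IT (6.5%), 5 of 31 in layer 5 IT (5.48%), 8 of 21 in layer 5 ET (5.76%), 3 of 21 in layer 5/6 NP (6.04%), 2 of 20 in layer 6 IT Car3 (5.38%), 4 of 38 in layer 6 CT (3.88%) and 2 of 16 in layer 6b (4.12%). Among interneurons they numbered 2 of 31 in Pvalb interneuron-like nuclei (4.48%), 3 of 29 in Sst interneuron-like nuclei (4.18%), 2 of 20 in Vip interneuron-like nuclei (6.67%) and 2 of 25 in Lamp5 interneuron-like nuclei (4.19%). The few genes that did pass the adjusted test, none of them members, were 0.00786% of those tested in oligodendrocyte-like, 0.00863% in OPC-like, 0.00805% in layer 5 IT and 0.0221% in layer 5/6 NP nuclei. The labels number the libraries by batch, 1 and 2 at each age. With the batch as a block, 3 members were called in the classes (Cdh4, Cdh23 and Cdh19) and 4 in the subclasses (Cdh18 in layer 4 IT and Lamp5, Cdh4 and Cdh9 in layer 5 IT). The block adds a term to a fit on 4 libraries. Over genes, the deviations of libraries of the same number from their age means correlated at only -0.140 to -0.0123. Pairing the libraries the other way, added after the data were seen, did not call Cdh19, Cdh18 in layer 4 IT or Cdh9 in layer 5 IT. It did call the others, so p-values under the block are descriptions as well. Without 3M-2 the calls were 30 and 14, and without 3M-1 they were 3 and 14. So the values below are descriptions of 4 libraries.

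Cdh4 was lower at 6 months in excitatory neuron-like nuclei, at 64.8 and 99.4 CPM against 45.3 and 36.2 CPM. The log2 difference was -1.01 ± 0.21 with an adjusted p of 0.427, and -0.99 with an adjusted p of 0.012 under the block. The mix of layers differed as well: layer 2/3 IT, where Cdh4 was high, made up 21.9% and 24% of the layered nuclei at 3 months and 9.63% and 8.28% at 6 months. Within subclasses the direction was the same in 10 of 11, without overlap in 6, where 16.8% to 21.7% of all genes tested in a subclass were lower without overlap. Here and below, such shares are of single genes within a class or subclass. Classes and subclasses come from the same libraries and are not independent, so the shares are no like background for a count over them. In layer 5 IT the values were 73.6 and 57.6 CPM against 25.2 and 23 CPM, a log2 difference of -1.44 ± 0.22 with an adjusted p of 0.0718, and 0.000666 under the block. In layer 5/6 NP and Vip interneuron-like nuclei the log2 differences were -1.12 ± 0.24 and -0.91 ± 0.23, without overlap.

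Cdh22 was lower at 6 months in 7 of 8 subclasses, 5 of them without overlap, beside 16.8% to 21.7% of all genes in a subclass, and none passed the test. Its levels in excitatory neuron-like nuclei were 48.1 and 43.4 CPM at 3 months and 25.4 and 29.3 CPM at 6 months, a log2 difference of -0.75 ± 0.17 (adjusted p = 0.446). In layer 4 IT they were 40.1 and 41.6 CPM against 21 and 20.9 CPM, -0.93 ± 0.24. Cdh9 in layer 5 IT, at 48.2 and 54.8 CPM against 26.4 and 20.9 CPM, had a log2 difference of -1.12 ± 0.22, with an adjusted p of 0.259, and 0.0299 under the block.

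Cdh18 was higher at 6 months in all 6 classes, each without overlap, where 16.2% to 23.8% of all genes tested in a class did so. The classes share their libraries, so the 6 are not independent and these shares are no background for the count. In excitatory neuron-like nuclei it was at 841 and 619 CPM against 1068 and 1027 CPM (0.51 ± 0.17, adjusted p = 0.723), while layer 6 CT, the layer with its next highest level, made up 25.5% and 24.6% of layered nuclei at 3 months and 33.5% and 34.3% at 6 months. Within subclasses 11 of 12 were higher, 5 without overlap, which 13.3% to 18.6% of all genes were. Lamp5 interneuron-like nuclei had 87.2 and 82.7 CPM against 202 and 183 CPM, a log2 difference of 1.19 ± 0.18 with an adjusted p of 0.0934, and 0.0381 under the block. In layer 4 IT it was 0.82 ± 0.20 higher, with an adjusted p of 0.435, and 0.0403 under the block. Layer 6b, where it is highest, differed by 0.08 ± 0.14.

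The glial values of Cdh18 need the other cells' RNA beside them. In oligodendrocyte-like nuclei it was at 45 and 53.6 CPM against 89.3 and 87.2 CPM (0.77 ± 0.19, adjusted p = 0.561), while the excitatory markers summed to 94.6 and 202 CPM against 153 and 202 CPM there, and the inhibitory markers to 83.6 and 81.6 CPM against 173 and 151 CPM, without overlap. In microglia-like nuclei it was at 104 and 191 CPM against 286 and 249 CPM, with excitatory markers at 196 and 332 CPM against 268 and 328 CPM. Without the nuclei marked as doublets, the log2 difference of Cdh18 fell to 0.20 in oligodendrocyte-like nuclei and was -0.24 in OPC-like nuclei, where it had been 0.53 ± 0.17. In astrocyte-like nuclei it was at 36.2 and 199 CPM against 433 and 434 CPM, from 9 and 82 against 104 and 146 UMIs, with inhibitory markers at 44.2 and 180 CPM against 729 and 211 CPM. The part of RNA from neurons was not tested.

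Cdh23 had 8 and 13 UMIs in inhibitory neuron-like nuclei at 3 months and 69 and 34 at 6 months, a log2 difference of 1.96 ± 0.44 with an adjusted p of 0.83, and 0.0272 under the block. The microglia markers in the same inhibitory neuron-like nuclei were at 84.0 and 141 CPM against 184 and 145 CPM, without overlap, and their part was not tested. In microglia-like nuclei, its main class, Cdh23 differed by 0.01 ± 0.24. Cdh19 had 0 and 3 UMIs in microglia-like nuclei at 3 months and 19 and 25 at 6 months, with an adjusted p of 0.5, and 0.0427 under the block. The 9 oligodendrocyte markers moved alongside, at 137 and 253 CPM against 388 and 345 CPM in the same nuclei, and their part was not tested. In oligodendrocyte-like nuclei Cdh19 went the other way, at 635 and 508 CPM against 354 and 412 CPM (-0.67 ± 0.22, adjusted p = 0.841).

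The remaining members named for age by the smallest unadjusted p had adjusted p-values of 0.5 to 0.997. In oligodendrocyte-like nuclei Cdh6 and Cdh8 differed by 0.77 ± 0.23 and 1.14 ± 0.36, the latter from 17.0 and 46.9 CPM against 75.3 and 65.6 CPM, beside the inhibitory markers given above for that class. Without the nuclei marked as doublets, the log2 difference of Cdh8 there was 1.64, with an adjusted p of 0.0355 in edgeR. With no filter on low counts it was 1.15, with an adjusted p of 0.00386 in edgeR. Cdh6 in microglia-like nuclei differed by 0.95 ± 0.27, where the excitatory markers were at 196 and 332 CPM against 268 and 328 CPM. Cdh13 in astrocyte-like nuclei differed by 1.25 ± 0.49, where the inhibitory markers were at 44.2 and 180 CPM against 729 and 211 CPM, without overlap. The part of RNA from neurons in these values was not tested. Pcdha6 in excitatory neuron-like nuclei had 4 and 8 against 18 and 17 UMIs, Pcdhb14 differed by 0.69 ± 0.23 in inhibitory neuron-like and 1.03 ± 0.44 in OPC-like nuclei, and Cdh4 by -0.43 ± 0.15 in inhibitory neuron-like nuclei. Cdh19 differed by 0.61 ± 0.24 in OPC-like nuclei, where the oligodendrocyte markers were at 194 and 151 CPM against 380 and 267 CPM, without overlap, and their part was not tested. In astrocyte-like nuclei it differed by -0.60 ± 0.33. Pcdh9 was above in 5 of 6 classes and 7 of 12 subclasses without overlap, by at most 0.63 on the log2 scale, where 16.2% to 23.8% of all genes in a class and 13.3% to 18.6% in a subclass were above without overlap. It was highest in oligodendrocyte-like nuclei, whose markers were at 26.4 and 31.6 CPM against 51.5 and 64.7 CPM in excitatory neuron-like nuclei. In inhibitory neuron-like nuclei they were at 43.9 and 65.9 CPM against 114 and 120 CPM. They were also above without overlap in OPC-like, astrocyte-like and microglia-like nuclei, and their part was not tested. Cdh20, drawn though not named by the rule, was higher in 8 of 11 subclasses and lower in 3. In 6 subclasses it was above without overlap, and its smallest adjusted p among subclasses in edgeR was 0.528. Cdh20 too was highest in oligodendrocyte-like nuclei, and the part of RNA from them in these subclasses was not tested.

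The sums of clustered genes were above or overlapping at 6 months. The gamma sum was above without overlap in 4 of 6 classes and 10 of 12 subclasses, the beta sum in 5 and 7, and the alpha sum in 2 and 4. None was below without overlap. The shares of all genes given above are of single genes within a class or subclass. They are no like background for sums counted over classes of the same 4 libraries. In oligodendrocyte-like nuclei the gamma sum was 33.5 and 43.9 CPM against 60.4 and 58.2 CPM. None of the clustered genes passed the edgeR test for age in any class, and 3M-1 was the lowest library for the alpha sum in each of the 6 classes.

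**Figure D5:**
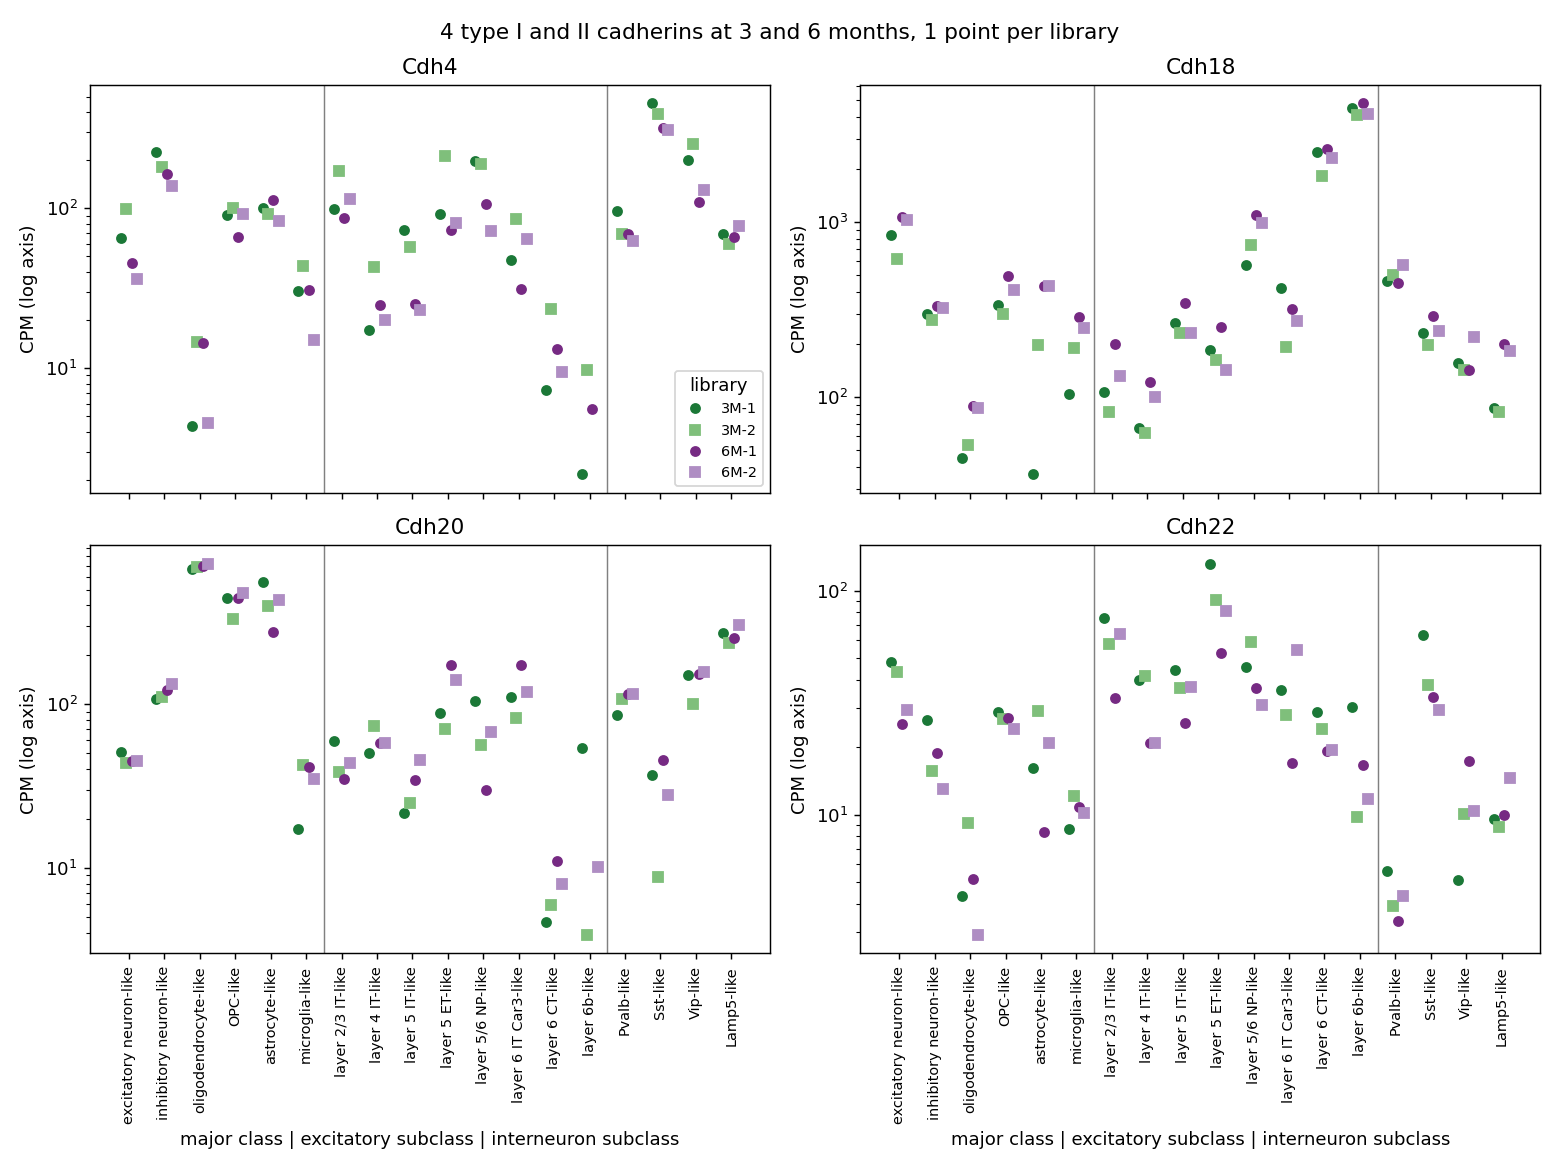
CPM of Cdh4, Cdh18, Cdh20 and Cdh22, on a log axis, by class and neuron subclass. Circles are replicate 1, squares replicate 2, green 3 months and purple 6 months, and values of 0 are not drawn. The 6-month points of Cdh18 lay above the 3-month points in all 6 classes.

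Whether age acted differently in the 2 neuron classes was tested as an interaction. None of 77 members passed (0.0227% of all genes did), DESeq2 called 0, and 10 had an unadjusted p under 0.05 (13%, beside 6.45% of all genes). The smallest were Cdh23, with a difference of 1.81 ± 0.46 in inhibitory minus excitatory log2 change, and Cdh6, with -0.61 ± 0.16, both with adjusted p-values above the threshold, at 0.281 and 0.292.

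Other genes of the pathway were read from lists, to be set beside the shares of all genes called higher and lower: 33.9% and 33.4% in excitatory neuron-like, 30.8% and 30.4% in inhibitory neuron-like, 31.1% and 34.7% in oligodendrocyte-like, 18.1% and 12.7% in OPC-like, 13.3% and 8.27% in astrocyte-like, and 30.4% and 33.2% in microglia-like nuclei. Of 18 catenins and junction partners, 10 were higher and 4 lower in excitatory neuron-like, 8 and 5 in inhibitory neuron-like, 7 and 8 in oligodendrocyte-like, 9 and 4 in OPC-like, 5 and 3 in astrocyte-like, and 5 and 11 in microglia-like nuclei. The median log2 difference of the list was -0.0141 beside -0.0439 over all genes in oligodendrocyte-like and -0.69 beside -0.0743 over all genes in microglia-like nuclei. Ptprm, a receptor phosphatase that binds cadherin complexes, was 2.58 ± 0.09 higher in inhibitory neuron-like nuclei and 3.92 ± 0.14 higher in layer 5 IT, and Vcl (vinculin) was 3.23 ± 0.17 higher in astrocyte-like nuclei. Of 25 other genes of the cadherin superfamily, 14 were tested, with 9 higher and 2 lower in excitatory neuron-like, 8 and 2 in inhibitory neuron-like, 1 and 12 in oligodendrocyte-like, 4 and 1 in OPC-like, 6 and 0 in astrocyte-like, and 1 and 9 in microglia-like nuclei. Celsr1, of planar polarity, was 5.83 ± 0.46 higher in astrocyte-like nuclei. Of 18 genes of cadherin shedding and protocadherin promoter choice, 17 were tested, with 14 higher and 1 lower in microglia-like nuclei, led by the sheddase Adam17 (2.36 ± 0.09), and a median of 0.45 beside -0.0743 over all genes. The same list had 11 higher and 2 lower in oligodendrocyte-like, 1 and 9 in excitatory neuron-like, 0 and 11 in inhibitory neuron-like, 1 and 3 in OPC-like, and 0 and 2 in astrocyte-like nuclei. Of the 5 sex-linked genes, Xist was the only one tested and was lower in inhibitory neuron-like nuclei (-0.39 ± 0.09), and in each library the Y-linked genes had at most 9 UMIs each. None of these lists had a gene called for age in edgeR.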

How the data were processed

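The authors deposited UMI counts by gene and nucleus, not normalized, from a 10x 3′ kit. The matrix headers name Cell Ranger 7.0.0, and the submitters' processing notes name mm10 and Seurat. Whether introns or strand were used in counting is not given in the sources used here. The study's filter was applied (at most 7000 genes and 1% mitochondrial UMIs). Counts were scaled to 10000 per nucleus for gating only. A nucleus joined its top class where at least 3 of the class's markers were detected and the mean of its marker levels, each scaled to unit SD over nuclei, led every other class by 0.5 (2 markers and 0.25 for subclasses). Excitatory neuron-like nuclei had to lead by 0.5 over the inhibitory score only. The stricter gate added 0.25 to the lead. Doublets were marked with Scrublet in scanpy 1.11.5 and kept in the main analysis. Raw UMIs were summed per library and class with at least 10 nuclei per library, since nuclei are not replicates, and CPM is of that sum. Tests were edgeR 4.0.16 quasi-likelihood fits (limma 3.58.1, R 4.3.3) with TMM and filterByExpr, Benjamini-Hochberg adjusted over all genes at 0.05. Between classes, the filter can keep a sparse gene because it is high in a single class, so a higher call of such a gene is partly set by the filter. Comparisons of classes held the library as a term, and comparisons of age had none. The SE given after ± is the absolute log2 difference divided by the square root of the test's F statistic. It rests on the dispersion of the whole fit and is no spread of 4 values. The scripts were tested on simulated data. Alternatives were other size factors (RLE), no filter on low counts, DESeq2 1.42.0, a stricter gate, no filter on nuclei, no doublets, no library term, each library left out, and the replicate number as a block. Genes were named by rule: between classes, up to 6 called members with the largest and 3 with the lowest difference in the same direction in every library, and for age every called member, or the 3 with the smallest p in a class where none was called. Members, lists and markers were chosen with earlier results of these data known. Coordinates come from GENCODE M21 (GRCm38), which held all 92 members. CPM at the 3′ end is not per length, so levels are not compared between genes. The labels carry a batch field, 1 or 2, equal to the replicate number at both ages. Deviations of such pairs from the age means correlated between -0.140 and -0.0123 over 18 classes and subclasses. Each title names a mouse and the study gives n = 2 mice per age, but no animal is identified in the labels. So p-values for age within a class measure the spread between libraries, part of which may be technical. Those between classes, and of the interaction, measure the spread left once differences between libraries are taken out by the library term.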

Additional observations from a re-analysis of the deposited data

How the results depend on the processing

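Over all alternatives the count of 149 calls between the 6 classes ran from 134 to 191, that of 120 between excitatory subclasses from 104 to 140, and that of 64 between interneuron subclasses from 60 to 75. Of the main calls, the alternatives shared at least 126 of 149 (the fewest without 3M-2), 104 of 120 (the fewest with no library term) and 60 of 64. Calls for age did not hold still. The count of 0 in the 6 classes became 7 with no filter on low counts, 1 in DESeq2, and 3 with the replicate block. It became 1 with the stricter gate (Pcdh7 in microglia-like nuclei) and 1 without the nuclei marked as doublets (Cdh8 in oligodendrocyte-like nuclei). The count of 0 in the subclasses became 4 with no filter, 1 in DESeq2, 1 with no filter on nuclei, and 4 with the replicate block. Leaving out 1 library gave 0 to 30 calls in the classes and 1 to 14 in the subclasses, and 15 of the 30 calls without 3M-2 were in microglia-like nuclei. Leaving out a library puts 1 sample in an age group, which is then assumed to vary like the other age. Crossing the batch numbers, an alternative added after the data were seen, gave 4 calls in the classes and 3 in the subclasses. The interaction count of 0 became 7 with no filter and 0 to 2 with 1 library left out, and stayed at 0 with the replicate block in place of the library. Cdh18 in OPC-like nuclei reversed to -0.24 without the nuclei marked as doublets. The replicate block changed no other call for age than those given in the report. The clustered genes had few UMIs and the astrocyte-like class few nuclei, which limits what could be detected there. The causes of these moves were not tested.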

Other observations

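Nuclei with vascular markers were too few for any comparison and are given as values. Over the 4 libraries, 20 endothelial-like nuclei with 40702 UMIs held 6 UMIs of Cdh5, the cadherin of endothelial junctions, or 147 CPM with an exact Poisson 95% interval of 54.1 to 321 that covers counting error only. The 6 classes of the report had 0.0918 CPM. Pcdh12 had no UMI there. In 61 mural-like nuclei with 152623 UMIs, Cdh2 had 51 UMIs, or 334 CPM (249 to 439), and Cdh11 had 31 UMIs, or 203 CPM (138 to 288), while Cdh5 had 0 UMIs.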
